A study of Mus musculus with 6 samples.

Results

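The 38 genes described here encode the machinery that folds secreted proteins in the endoplasmic reticulum (ER), the machinery that disposes of those that fail to fold, and the unfolded protein response (UPR) that adjusts both. They were chosen by symbol from the count table of the study, and all 38 were among its 24421 genes. By role they comprise 11 ER chaperones and co-chaperones, 4 protein disulfide isomerases, 9 genes of ER-associated degradation (ERAD), 6 UPR sensors and transcription factors, 5 targets of the PERK-ATF4 branch and 3 genes of the ER translocon.

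The 6 libraries were made from poly(A) RNA of FACS-sorted, lineage-labeled mouse alveolar type 2 cells (AT2s). The 3 control libraries (AT2 CTRL) came from mice carrying Sftpc-CreERT2/+ with R26-tdTomato/+, and the 3 caBmpr1a libraries (AT2 CAB) from mice with Sftpc-CreERT2/+ and R26-tdTomato/R26-caBmpr1a. All 6 thus carried the Cre, expressed from the Sftpc locus and activated by tamoxifen, and 1 copy of the tdTomato reporter, while only AT2 CAB could make the constitutively active BMP receptor. The sort took cells by their lineage label, so a cell in which only the reporter allele had recombined would also be collected. Animals of AT2 CTRL replicate 2 and AT2 CAB replicate 1 were 16 weeks old and those of the other 4 libraries were 12 weeks old.

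The ER is the site where secreted and membrane proteins fold. In the UPR, the membrane sensors IRE1, PERK and ATF6 detect unfolded proteins in its lumen. IRE1 splices Xbp1 mRNA, PERK phosphorylates the initiation factor eIF2α and thereby favours translation of ATF4, and ATF6 is cleaved to release a transcription factor. Their transcriptional targets include the chaperones and ERAD genes listed here. AT2s secrete surfactant proteins in quantity, and misfolding variants of surfactant protein C are a known cause of ER stress in this cell type. The counts do not separate spliced from unspliced Xbp1, and they do not measure phosphorylation of eIF2α or cleavage of ATF6.

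Many genes induced by ATF6 and XBP1 carry an ER stress response element (ERSE), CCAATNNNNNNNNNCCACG, close to their start. RefSeq promoters (GRCm38.p6, 250 bases before to 50 bases after the start) could be matched to 32 of the 38 genes, and those of Atf6, Derl1, Ern2, Hyou1, Manf and Sec61a1 were not matched. On either strand, 9 of the 32 (28.12%) held an exact ERSE, against 0.1369% of all 27025 genes with a promoter of the same length. The genes were chosen for roles in ER folding and the UPR, so this contrast reflects that choice and is no result of the libraries. The stretches around these elements are shown because 6 of the 11 chaperones carry one, while the chaperones Hyou1 and Manf could not be searched. Capitals mark the fixed letters of the element, which reads as CGTGG and ATTGG at the same spacing where it lies on the opposite strand, and each line is written 5′ to 3′ in the direction of the gene.
Hspa5 (chr2:34772010-34772058, plus strand): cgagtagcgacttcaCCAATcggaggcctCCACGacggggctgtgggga
Hsp90b1 (chr10:86705518-86705671, minus strand): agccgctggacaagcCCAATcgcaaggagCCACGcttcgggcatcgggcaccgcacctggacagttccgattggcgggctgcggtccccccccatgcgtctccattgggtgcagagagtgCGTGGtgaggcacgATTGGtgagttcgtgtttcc
Calr (chr8:84847060-84847108, minus strand): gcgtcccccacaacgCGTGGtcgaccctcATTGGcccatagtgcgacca
Canx (chr11:50325785-50325833, minus strand): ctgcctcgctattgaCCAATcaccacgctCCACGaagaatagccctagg
Dnajc3 (chr14:118937812-118937860, plus strand): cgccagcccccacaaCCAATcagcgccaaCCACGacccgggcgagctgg
Pdia6 (chr12:17266476-17266524, plus strand): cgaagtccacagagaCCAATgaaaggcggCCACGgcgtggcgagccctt
Creld2 (chr15:88819505-88819553, plus strand): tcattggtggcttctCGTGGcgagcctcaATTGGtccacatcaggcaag
Syvn1 (chr19:6046517-6046565, plus strand): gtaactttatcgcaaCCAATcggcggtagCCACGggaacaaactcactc
Derl3 (chr10:75893227-75893275, plus strand): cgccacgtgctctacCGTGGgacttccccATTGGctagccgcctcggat

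The shorter ERSE-II, in which ATTGG is followed by CCACG after 1 base of any kind, shares these letters with ERSE and was found in Dnajb11 and Herpud1 and in 0.0444% of all genes. Herpud1 also held the CEBP-ATF response element TTGCATCA, an ATF4 target sequence present in 1.0324% of genes, and its stretch is shown because it joins elements of both arms.
Herpud1 (chr8:94386302-94386402, plus strand): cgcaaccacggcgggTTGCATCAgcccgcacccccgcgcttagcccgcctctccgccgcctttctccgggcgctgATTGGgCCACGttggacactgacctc
The CEBP-ATF element was also found in Chac1. The UPR element TGACGTGG was found in Vcp and in 0.7142% of genes, and the cAMP response element TGACGTCA in Ppp1r15a and in 2.0315% of genes. All were searched on both strands, and a match describes letters and is not evidence of binding.

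Each library held between 21554249 and 28440227 counts, and 3 counts correspond to 0.105 to 0.139 CPM when counts are divided by the library total alone. All other CPM values are counts brought to the same scale in every library by the TMM method. Floors of this kind cover counting error only. The sorted cells carried the markers of their type, with Sftpc, the gene for surfactant protein C, between 42700 and 60123 CPM and none of the 12 AT2 markers at 0. All 7 BMP targets listed had higher counts in AT2 CAB, and 5 passed the adjusted threshold. AT2 CTRL replicate 1 and AT2 CAB replicate 3 stood apart from the rest: they alone had reads on the 4 Y-linked genes examined, at 176 and 146 CPM. Results are therefore also given for the other 4 libraries.

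To ask whether activation of BMPR1a was accompanied by a different level of the ER and UPR genes, the 2 groups were compared with edgeR. All 38 genes passed the filter on low counts. Most of them lay modestly lower in AT2 CAB, but none passed the adjusted threshold (0 of 38, smallest adjusted p = 0.277, for Hsp90b1), in a comparison in which 0.251% of the 16723 tested genes passed in either direction and 0.0120% passed as lower. The fitted log2 fold change (AT2 CAB over AT2 CTRL, given with its standard error, SE) was below 0 for 32 of 38 genes, compared with 51.2% of all tested genes. The median over the 38 was -0.23 on the log2 scale, a change of -14.5%, and the median over all tested genes was -0.0096. For 17 of 38 genes, all 3 AT2 CAB values lay below all 3 AT2 CTRL values, which was the case for 10.1% of all genes, and for 0 of 38 they all lay above; over all genes the groups did not overlap in 17.1%, counting both directions. Counted by an unadjusted p under 0.05, 13 genes were lower (5.05% of all genes) and 1 gene, Edem2, was higher (4.62% of all genes). Limma-voom also called 0 of the 38, where it called 0.167% of all genes, and DESeq2 called 1, Hsp90b1 (adjusted p = 0.0164), among the 1.27% of genes that it called. Scaling by library size alone, which moved the median of all genes to 0.12, left 24 of 38 log2 fold changes below 0 (31.0% of all genes) and 11 genes with all AT2 CAB values lower (3.91% of all genes).

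Abundant genes in general leaned the same way. Of the 4096 genes with a mean of at least 50 CPM, a level set after the data were examined, 71.1% had a log2 fold change below 0 and 19.0% had AT2 CAB values that were all lower, with a median of -0.097. Of the 30 ER and UPR genes above that level, 26 had a log2 fold change below 0 and 16 had AT2 CAB values that were all lower, with a median of -0.23. The count of 13 lower genes by unadjusted p varied with the library left out, as did the share of all genes. It was 14 without AT2 CTRL replicate 1 (6.76% of all genes), 7 without AT2 CTRL replicate 2 (3.14%) and 6 without AT2 CTRL replicate 3 (3.17%). The count was 9 without AT2 CAB replicate 1 (3.98%) and 2 without AT2 CAB replicate 2 (2.17%). Without AT2 CAB replicate 3, 11 genes were lower by that measure (2.92%), and 24 of 38 had AT2 CAB values that were all lower, compared with 11.5% of all genes.

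**Figure D1:**
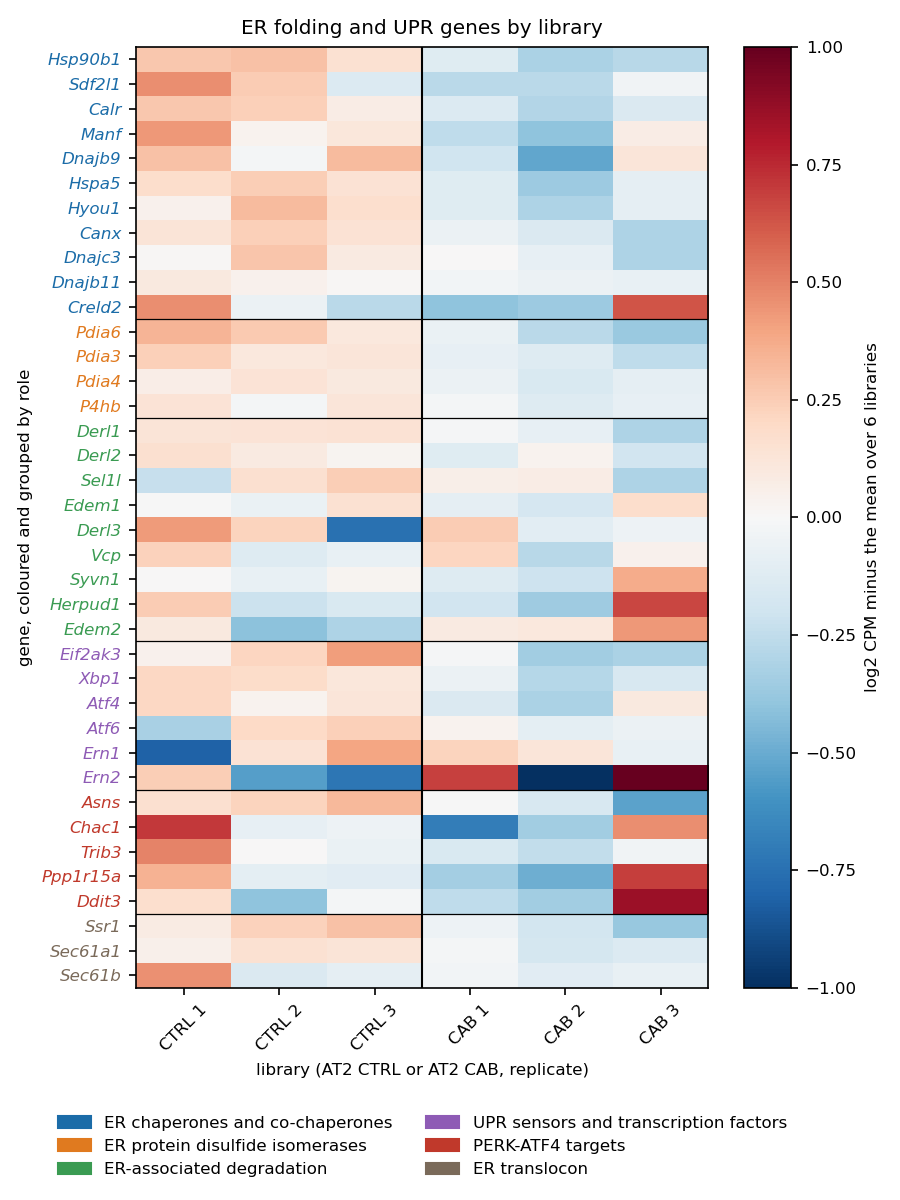
Heat map of the 38 genes (rows, coloured and grouped by role) in the 6 libraries (columns), showing log2 CPM minus the mean of each gene over the 6 libraries; the colour scale ends at -1 and 1, and Ern2 runs past it. Most chaperone and disulfide isomerase rows turn from red in AT2 CTRL to blue in AT2 CAB, and in AT2 CAB replicate 3 a few rows, among them Creld2, Herpud1, Ppp1r15a and Ddit3, are the reddest of their row.

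The chaperones gave the lowest median of the 6 roles over all 6 libraries. All 11 had a log2 fold change below 0 (Dnajb11 crossed 0 under scaling by library size alone, and Creld2 kept its side in 12 of 18 alternatives, crossing 0 with library size alone, upper-quartile scaling, a minimum count of 50, or AT2 CTRL replicate 1, AT2 CAB replicate 1 or AT2 CAB replicate 2 left out), with a median of -0.38 and a range from -0.48 to -0.038, 6 had an unadjusted p under 0.05, and in 7 the groups did not overlap. Over all tested genes, 51.2% were below 0, 5.05% were lower by unadjusted p and 10.1% were lower without overlap. Among genes with a mean of at least 50 CPM, these shares were 71.1%, 10.4% and 19.0%. Hspa5 (chr2:34772090-34776529) encodes BiP, the abundant Hsp70-type chaperone of the ER lumen that also holds the UPR sensors inactive. Its level was 807, 847 and 789 CPM in AT2 CTRL replicates 1, 2 and 3, and 656, 556 and 672 CPM in AT2 CAB replicates 1, 2 and 3. The highest AT2 CAB library thus stayed below the lowest AT2 CTRL library. The fitted AT2 CAB level of Hspa5 was 77.1% of AT2 CTRL, which is -0.38 on the log2 scale (SE 0.13, adjusted p = 0.422 from edgeR).

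Hsp90b1 (chr10:86690841-86705444) encodes GRP94, the Hsp90-type chaperone of the ER. It had 708, 718 and 653 CPM in AT2 CTRL and 539, 470.3 and 485 CPM in AT2 CAB, again without overlap. Its fitted level was 71.9% of AT2 CTRL, with a log2 fold change of -0.48 (SE 0.13, adjusted p = 0.277). Over the 18 alternative analyses, that difference ranged from -0.52 to -0.35 and its adjusted p from 0.0164 to 0.781.

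Calr and Canx encode calreticulin and calnexin, the lectin chaperones that hold newly made glycoproteins until they are folded. Calr (chr8:84842088-84846931) had 459.6, 449 and 401 CPM in AT2 CTRL and 346, 312 and 344 CPM in AT2 CAB, a log2 fold change of -0.39 (adjusted p = 0.377). Canx (chr11:50293957-50325673) had 313, 337 and 316 CPM against 274, 258 and 231 CPM, a log2 fold change of -0.34 (adjusted p = 0.422). For both lectins the 2 groups did not overlap.

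Among the partners of BiP, Hyou1, the nucleotide exchange factor GRP170, had 192, 232 and 209.7 CPM in AT2 CTRL and 171, 150.2 and 175 CPM in AT2 CAB, giving a log2 fold change of -0.35 (adjusted p = 0.424). Manf, a small BiP-binding protein that can be secreted, had 108, 81.9 and 86.6 CPM in AT2 CTRL and 67.1, 60.5 and 84.4 CPM in AT2 CAB, a log2 fold change of -0.38 (adjusted p = 0.503). Its groups overlapped, because AT2 CAB replicate 3 exceeded AT2 CTRL replicate 2.

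The J-domain co-chaperones, which deliver substrates to BiP, differed in size of change. Dnajc3 had 209, 252 and 221 CPM in AT2 CTRL and 208, 196 and 168 CPM in AT2 CAB, a log2 fold change of -0.25 (adjusted p = 0.592), and its groups were separated by about 1 CPM between AT2 CTRL replicate 1 and AT2 CAB replicate 1. Dnajb11 had 81.9, 78.7 and 76.9 CPM against 75.0, 73.3 and 72.6 CPM, with a log2 fold change of only -0.10 (adjusted p = 0.758). Its values did not overlap between groups, yet its log2 fold change turned to 0.025 under scaling by library size alone. Dnajb9, a J protein and known target of XBP1, had a difference of -0.38 on the log2 scale (adjusted p = 0.545) with overlapping groups. Sdf2l1, a partner of Dnajb11, had -0.40 (adjusted p = 0.519), also with overlap. Creld2, whose value in AT2 CAB replicate 3 stood apart, is described with that library.

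Protein disulfide isomerases introduce and rearrange the disulfide bonds of secreted proteins. In all 4 the AT2 CAB values lay below the AT2 CTRL values, and their median log2 fold change was -0.25. Such a separation was seen in 10.1% of all tested genes and in 19.0% of genes with a mean of at least 50 CPM. Pdia6 (chr12:17266595-17284770) had 429, 406 and 365 CPM in AT2 CTRL and 323, 282 and 262 CPM in AT2 CAB, a log2 fold change of -0.47 (SE 0.13, adjusted p = 0.318). Pdia3, the isomerase ERp57 that works with calnexin and calreticulin, had 450.6, 412 and 417 CPM against 361, 349.8 and 320.4 CPM, a log2 fold change of -0.31 (adjusted p = 0.461). The other two isomerases differed less. Pdia4 had 125, 131 and 127 CPM in AT2 CTRL and 115, 108 and 112 CPM in AT2 CAB, giving a log2 fold change of -0.20 (adjusted p = 0.576). P4hb, the classical disulfide isomerase and a subunit of collagen prolyl 4-hydroxylase, had 714, 640.4 and 704 CPM against 639.5, 592 and 613 CPM, a log2 fold change of -0.16 (adjusted p = 0.705). For P4hb the gap between the lowest AT2 CTRL and the highest AT2 CAB library was about 1 CPM. Without AT2 CAB replicate 3, the median of the 4 isomerases was -0.19.

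The translocon feeds nascent chains into the ER. Ssr1, which encodes the alpha subunit of the translocon-associated protein complex, had 183, 202 and 212 CPM in AT2 CTRL and 167, 152 and 132 CPM in AT2 CAB, a log2 fold change of -0.40 (SE 0.13, adjusted p = 0.380 from edgeR). Sec61a1, the channel subunit, had 241, 259 and 255 CPM against 230.0, 207 and 213 CPM, a log2 fold change of -0.22 (adjusted p = 0.579). Neither gene had overlapping groups. Sec61b, a small accessory subunit, had 59.1 CPM in AT2 CTRL replicate 1 and between 39.0 and 42.3 CPM in the other 5 libraries, so its log2 fold change of -0.17 rested on that library, and among the 4 libraries without Y-linked reads it was 0.077.

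**Figure D2:**
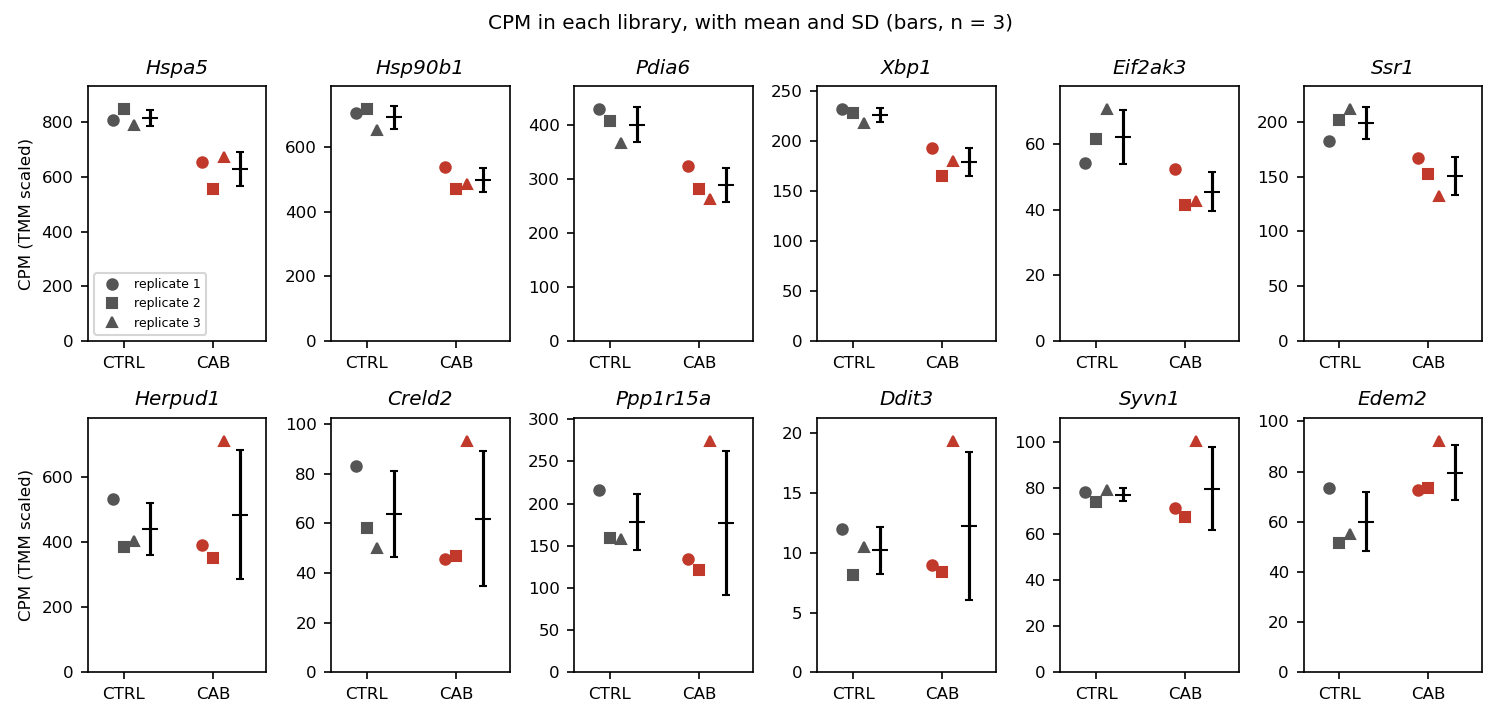
CPM of 12 genes in each library of AT2 CTRL (grey) and AT2 CAB (red), with the mean and SD of the 3 libraries as bars and the replicate number as the symbol; axes start at 0. In the upper row (Hspa5, Hsp90b1, Pdia6, Xbp1, Eif2ak3 and Ssr1) the groups do not overlap, and in the lower row (Herpud1, Creld2, Ppp1r15a, Ddit3, Syvn1 and Edem2) AT2 CAB replicate 3 is the highest of the 6 libraries.

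ERAD extracts misfolded proteins from the ER for degradation by the proteasome. Its 9 genes were split around 0, with a median log2 fold change of -0.011 (0.11 under scaling by library size alone), 6 below 0 and 3 above, and 1 of them, Derl1, had groups that did not overlap. Over all tested genes the groups did not overlap in 17.1%, counting both directions. Derl1, a derlin of the retrotranslocation machinery, had 133, 134 and 135 CPM in AT2 CTRL and 121, 115 and 98.8 CPM in AT2 CAB, a log2 fold change of -0.27 (adjusted p = 0.511). Edem2, which trims mannose from misfolded glycoproteins and so commits them to degradation, was the gene with an unadjusted p under 0.05 in the other direction. It had 73.4, 51.4 and 55.3 CPM in AT2 CTRL and 72.8, 73.5 and 92.3 CPM in AT2 CAB, a log2 fold change of 0.41 (SE 0.17, adjusted p = 0.485). AT2 CTRL replicate 1 lay between AT2 CAB replicates 1 and 2, so the groups overlapped. Edem2 passed the adjusted threshold only where a covariate for Y-linked reads was fitted (log2 fold change 0.41, adjusted p = 0.0427), and over the 18 alternatives its adjusted p ranged up to 0.879.

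Herpud1 and Syvn1 are described further on, and none of the ERAD genes other than Derl1 and Edem2 had an unadjusted p under 0.05. Sel1l, the adaptor of the ubiquitin ligase HRD1, had a difference of -0.12 on the log2 scale (adjusted p = 0.850), and Derl2 had -0.18 (adjusted p = 0.629). Edem1, a relative of Edem2, had -0.049, and Vcp, the p97 ATPase that pulls substrates into the cytosol, had -0.0093. Derl3 was counted at 2.78 to 6.28 CPM, with a log2 fold change of -0.011 and a standard error of 0.33. The median of the 9 genes was -0.096 both without AT2 CAB replicate 1 and without AT2 CAB replicate 3, and 0.076 without AT2 CAB replicate 2.

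Of the 3 sensors, PERK alone had groups that did not overlap. Eif2ak3 (chr6:70844527-70905240), which encodes PERK, had 54.4, 61.5 and 70.7 CPM in AT2 CTRL and 52.5, 41.6 and 42.6 CPM in AT2 CAB. Its log2 fold change was -0.45 (SE 0.14, adjusted p = 0.380). Ern1, which encodes IRE1α, had 31.2 CPM in AT2 CTRL replicate 1 and between 51.9 and 71.6 CPM in the other 5 libraries, with a log2 fold change of 0.099 (SE 0.27, adjusted p = 0.922). Atf6 likewise had its lowest value, 67.4 CPM, in AT2 CTRL replicate 1, while AT2 CTRL replicates 2 and 3 had 96.8 and 99.9 CPM and the AT2 CAB libraries had 86.7, 79.1 and 81.2 CPM, giving a log2 fold change of -0.097 (adjusted p = 0.868). For Ern1 and Atf6, then, a control library was the lowest of the 6. Ern2, the IRE1 paralog known from mucus-secreting epithelium, was close to the floor, at 1.121, 0.643 and 0.571 CPM in AT2 CTRL and 1.51, 0.466 and 2.44 CPM in AT2 CAB, and its log2 fold change of 0.92 had a standard error of 0.66 (adjusted p = 0.682).

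Of the 2 downstream transcription factors, Xbp1 (chr11:5520641-5525993) had 232, 228 and 218 CPM in AT2 CTRL and 193, 165 and 180.4 CPM in AT2 CAB. The groups did not overlap, and the log2 fold change was -0.33 (SE 0.11, adjusted p = 0.416). Atf4 had 276, 244 and 259.9 CPM against 216, 191 and 255 CPM, so that AT2 CAB replicate 3 reached the AT2 CTRL values, and its log2 fold change was -0.24 (adjusted p = 0.624). ATF4 is controlled mainly through its translation, which mRNA counts do not show.

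The 5 targets of PERK and ATF4 ranged from -0.46 to 0.27 on the log2 scale, with a median of -0.31. That median was -0.039 without AT2 CTRL replicate 1, -0.094 without AT2 CAB replicate 1 and -0.086 with a minimum count of 50, which removed Chac1. Asns, asparagine synthetase, had 18.6, 19.3 and 20.7 CPM in AT2 CTRL and 16.5, 14.8 and 11.4 CPM in AT2 CAB, without overlap and with a log2 fold change of -0.46 (SE 0.16, adjusted p = 0.424). Trib3, a pseudokinase that inhibits AKT, had a difference of -0.31 on the log2 scale (adjusted p = 0.624). Chac1, which degrades glutathione, was counted at only 0.734 to 1.93 CPM, with a log2 fold change of -0.34 and a standard error of 0.51. Ppp1r15a, the phosphatase subunit GADD34 that reverses eIF2α phosphorylation, had -0.0072, and Ddit3, the transcription factor CHOP, had 0.27. For both, AT2 CAB replicate 3 lay far above the other two libraries of its group.

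**Figure D3:**
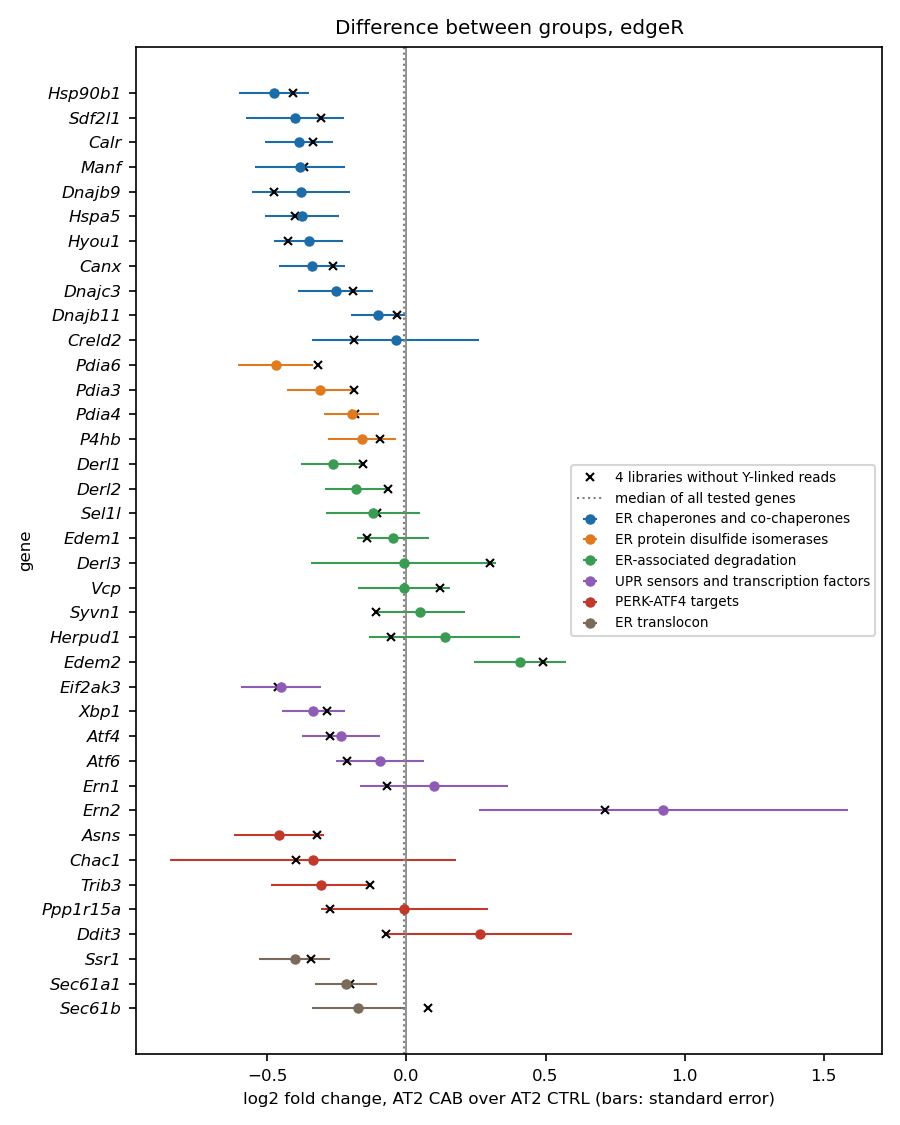
Log2 fold change of AT2 CAB over AT2 CTRL for the 38 genes from edgeR (points, with the standard error as bars, n = 3 libraries per group), coloured by role; crosses give the value among the 4 libraries without Y-linked reads and the dotted line the median of all tested genes. All chaperones, isomerases and translocon genes lie left of 0 (Dnajb11 crosses it under scaling by library size alone, and Creld2 keeps its side in 12 of 18 alternatives), Edem2 and Ern2 lie farthest right, and Derl3, Vcp, Syvn1, Herpud1, Ern1, Ddit3 and Sec61b change side among the 4 libraries.

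Several genes stood out in AT2 CAB replicate 3. Herpud1, which helps to assemble the HRD1 ligase complex, had 533, 386 and 402 CPM in AT2 CTRL and 391.7, 350.2 and 712 CPM in AT2 CAB. Ppp1r15a had 216, 159 and 158 CPM in AT2 CTRL and 135, 121 and 274 CPM in AT2 CAB. Creld2, an ER-stress-inducible thiol-disulfide protein, had 83.0, 58.0 and 49.99 CPM in AT2 CTRL and 45.7, 46.9 and 93.3 CPM in AT2 CAB. In each of these genes AT2 CAB replicate 3 was the highest of the 6 libraries, AT2 CTRL replicate 1 the second highest, and the other 4 libraries had lower values in AT2 CAB than in AT2 CTRL or, for Herpud1, values that overlapped. Ddit3 had 12.0, 8.10 and 10.5 CPM in AT2 CTRL and 8.94, 8.38 and 19.4 CPM in AT2 CAB. Syvn1, which encodes the HRD1 ligase itself, had 78.2, 74.0 and 79.3 CPM against 71.3, 67.6 and 101 CPM. Their log2 fold changes over all 6 libraries were 0.14 for Herpud1, -0.0072 for Ppp1r15a, -0.038 for Creld2, 0.27 for Ddit3 and 0.050 for Syvn1, with adjusted p-values from 0.828 to 0.996 (edgeR).

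The level in AT2 CAB replicate 3 relative to the mean of AT2 CAB replicates 1 and 2 was 2.24 for Ddit3, 2.14 for Ppp1r15a, 2.02 for Creld2 and 1.92 for Herpud1. A ratio of at least 1.5, a limit set after the data were examined, was reached by 6 of 38 genes, against 21.9% of all tested genes, and AT2 CAB replicate 3 was the highest of the 6 libraries for 8 of 38, against 27.5% of all genes. By count, then, these genes were not more often high in that library than genes at large. Outside the 38, 7 of the 12 immediate early and dissociation genes and 11 of the 31 other ATF4 program genes had their highest value in it, beside the same 27.5% of all genes. Fosb had 973 and 1218 CPM in AT2 CAB replicates 1 and 2 and 2777 CPM in replicate 3, and Atf3 had 316 and 354 CPM against 847 CPM; both were named after their values were seen. What these genes have to do with the high ER and UPR values of that library was not tested. At the other end, AT2 CAB replicate 2 was the lowest library for 19 of 38 genes, compared with 12.9% of all genes, and AT2 CTRL replicate 1 was the highest for 15 of 38, compared with 23.0%.

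Among the 4 libraries without Y-linked reads, 33 of the 38 log2 fold changes were below 0, against 47.3% of the genes tested there, with a median of -0.19. By unadjusted p, 18 were lower (7.28% of genes) and 1 was higher (6.26%), and none of the 38 passed the adjusted threshold (smallest adjusted p = 0.0609, for Edem2) although 0.693% of genes did. In 27 genes both AT2 CAB values lay below both AT2 CTRL values (22.5% of genes), and in 2 they lay above (22.3%). In Hspa5, Hyou1 and Eif2ak3 the log2 fold changes within the 4 libraries were -0.40, -0.43 and -0.46. The pair with Y-linked reads holds 1 library of each group and gave log2 ratios of -0.27, -0.13 and -0.35 for the same genes. In other genes the pair lay further below 0 than the 4 libraries. Values in the 4 libraries and in the pair were -0.32 and -0.71 for Pdia6, -0.19 and -0.49 for Pdia3, and -0.32 and -0.70 for Asns. The groups of all these named genes did not overlap over all 6 libraries, so the shared direction was fixed in advance and adds no support. For 5 of the 38 genes, both AT2 CAB values lay below both AT2 CTRL values among the 4 libraries while the pair pointed the other way; over all genes, the pair went against 4 libraries without overlap in 13.3%, counting both directions. A fit of the difference between the subsets gave an unadjusted p under 0.05 for 8 of the 38, against 13.7% of all genes, and an adjusted p under 0.05 for none.

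Per kilobase of exon, the levels of the genes spanned about 3 orders of magnitude, from Hspa5 to Ern2. In AT2 CTRL, Hspa5 had 311 ± 11.4 RPKM (SD, n = 3), followed by P4hb with 270.4 ± 15.8, Hsp90b1 with 251 ± 12.7, Herpud1 with 235 ± 43.2 and Calr with 225 ± 16.1 RPKM. Neighbours in the order were often not distinguishable, and in 11 of 37 neighbouring pairs the gap exceeded the sum of both SDs. Hspa5 was above P4hb by that measure, while P4hb, Hsp90b1, Herpud1 and Calr were not separated from their neighbours among themselves. The clearest steps lay between Atf4 (150.3 ± 9.19 RPKM) and Xbp1 (101 ± 3.21 RPKM), and between Canx (75.1 ± 3.05 RPKM) and Pdia4 (51.6 ± 1.34 RPKM). Of the sensors, Eif2ak3 (13.8 ± 1.82 RPKM), Ern1 (13.7 ± 5.25 RPKM) and Atf6 (11.8 ± 2.40 RPKM) were not distinguishable in level. In AT2 CAB, Herpud1 had the highest mean, 259 ± 106 RPKM, ahead of P4hb with 242 ± 9.39 and Hspa5 with 240.0 ± 24.0 RPKM, but its SD spanned both.

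**Figure D4:**
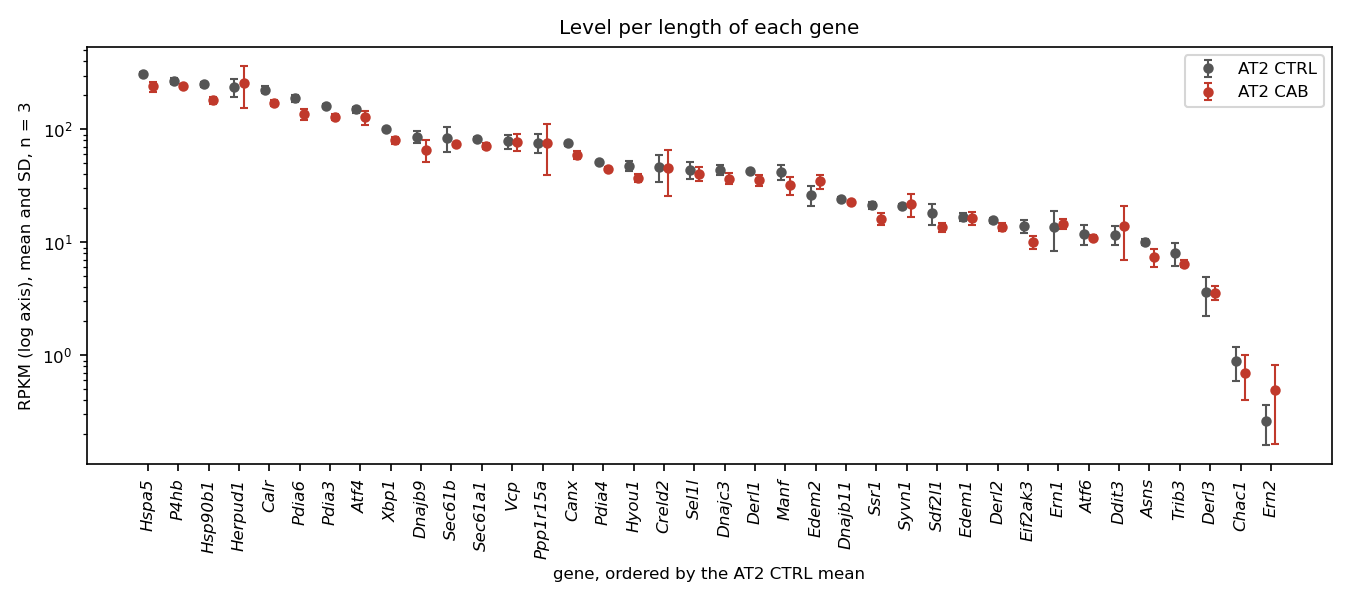
Level per kilobase of exon (RPKM, log axis) of the 38 genes in AT2 CTRL (grey) and AT2 CAB (red), as mean and SD of 3 libraries, ordered by the AT2 CTRL mean. Levels run from 311 RPKM for Hspa5 to 0.262 RPKM for Ern2 in AT2 CTRL, and the AT2 CAB error bars of Herpud1, Ppp1r15a, Creld2 and Ddit3 are the widest among the genes above 10 RPKM.

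Of the 32 genes with a matched promoter, the 9 with an ERSE had a median log2 fold change of -0.34, and 8 were below 0 (51.2% of all tested genes). Of the 8, 6 (Hspa5, Hsp90b1, Calr, Canx, Dnajc3 and Pdia6) had AT2 CAB values that were all lower, against 10.1% of all tested genes. Of the 9 carriers, Derl3 alone had a mean under 50 CPM. Among all genes with a mean of at least 50 CPM, 71.1% were below 0 and 19.0% had AT2 CAB values that were all lower. The matched genes without an ERSE had a median of -0.18. Since 6 of the 9 carriers are chaperones, a role with a median of -0.38, element and role were not told apart. Syvn1, Creld2 and Derl3 also carry the element and had log2 fold changes of 0.050, -0.038 and -0.011.

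A further 124 genes of the same compartments and pathways, grouped into 5 lists, all passed the filter. Of these, 96 had a log2 fold change below 0 (51.2% of all tested genes), with a median of -0.12. By unadjusted p, 16 were lower (5.05% of all genes) and 0 higher (4.62%), and none passed the adjusted threshold. In 30 the AT2 CAB values were all lower (10.1% of all genes) and in 1 all higher. Over all genes the groups did not overlap in 17.1%, counting both directions. Of the genes with a mean of at least 50 CPM, 71.1% were below 0 and 19.0% had AT2 CAB values that were all lower. By unadjusted p, 10.4% of them were lower. The 124 genes were not limited to that level. The 29 genes of translocation and the early secretory pathway came closest to the chaperones, with 27 below 0, a median of -0.21, 8 lower by unadjusted p and 15 without overlap. The same shares of all genes apply to these 29. Tram1, a translocon-associated membrane protein, had 143, 134 and 136 CPM in AT2 CTRL and 108, 102 and 95.1 CPM in AT2 CAB, a log2 fold change of -0.44 (adjusted p = 0.230). Srp9, a subunit of the signal recognition particle, had -0.57 (adjusted p = 0.293), and Kdelr2, a receptor that returns ER residents from the Golgi, had -0.39 (adjusted p = 0.328).

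Among 26 other genes of folding, glycosylation and redox, 22 were below 0 (51.2% of all genes), with a median of -0.14. By unadjusted p, 5 were lower (5.05% of all genes). Log2 fold changes were -0.29 for Erp44, -0.29 for Rpn1 and -0.26 for Sil1. The 20 other ERAD genes had a median of -0.093 and 0 with an unadjusted p under 0.05, and Herpud2 and Faf2, those with the smallest p, had -0.18 and -0.20. The 18 other UPR signaling genes had a median of -0.092. Creb3l1, an ER-anchored transcription factor of the ATF6 type, had 61.3, 68.4 and 83.9 CPM in AT2 CTRL and 59.5, 39.5 and 26.1 CPM in AT2 CAB, with a log2 fold change of -0.77 (SE 0.27, adjusted p = 0.420 from edgeR). Traf2 and Eif2s1 had -0.23 and -0.25. The 31 other ATF4 program genes were spread from -0.83 to 0.66 around a median of -0.063. Nupr1, a stress-inducible chromatin protein, gave the lowest value (-0.83, adjusted p = 0.314), Gars, glycyl-tRNA synthetase, had -0.48 (adjusted p = 0.274), and Ddit4, an mTOR inhibitor, had 0.41 (adjusted p = 0.554).

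**Figure D5:**
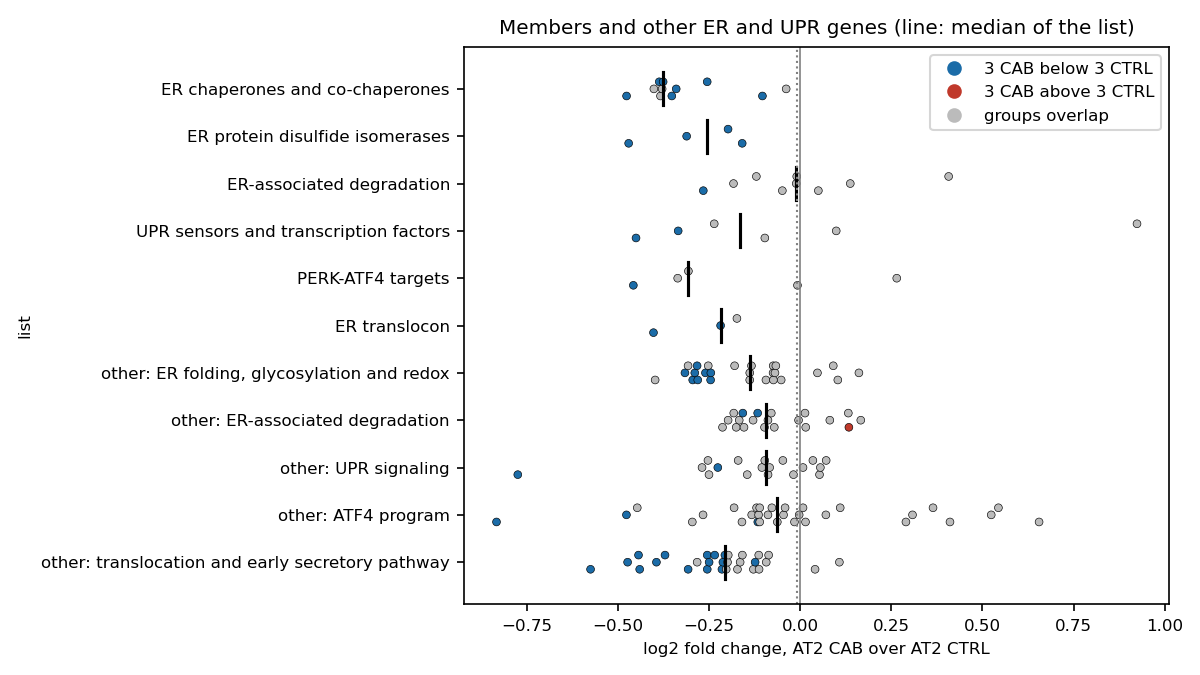
Log2 fold change of AT2 CAB over AT2 CTRL for each gene of the 6 roles and of 5 lists of other ER and UPR genes (rows); blue points mark genes whose 3 AT2 CAB values lie below the 3 AT2 CTRL values, red the reverse and grey an overlap, bars give the median of a list and the dotted line that of all tested genes. Blue points concentrate among chaperones, isomerases and the early secretory pathway, and 1 red point (Ube2j1) lies among the other ERAD genes.

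Several marker lists moved beside these genes. The summed level of the 12 AT2 markers was 153457 to 170759 CPM in AT2 CTRL and 111107 to 135304 CPM in AT2 CAB, and 10 of the 12 had a log2 fold change below 0, with a median of -0.43. Surfactant proteins D (Sftpd, -0.72, adjusted p = 0.279) and A (Sftpa1, -0.61, adjusted p = 0.416), which are themselves folded in the ER, were among them, while Sftpc and Sftpb had -0.15 and 0.013. In sorted bulk cells, fewer AT2s in a sample and less RNA of these genes per cell cannot be told apart. Plasma cells are rich in ER, and the summed level of 8 plasma and B cell markers was 34.9 to 46.3 CPM in AT2 CTRL and 25.0 to 84.9 CPM in AT2 CAB, with overlap. Of the 7 such markers that passed the filter, 6 had a log2 fold change above 0, with a median of 0.32. Mesenchymal markers, 7 of 7 with a log2 fold change above 0, summed to 142 to 190.4 CPM in AT2 CTRL and 230.1 to 285 CPM in AT2 CAB, and endothelial markers to 201 to 463 CPM and 399 to 661 CPM. The endothelial markers were also above 0 in 7 of 7, with a median of 0.63. Over all tested genes, 48.8% were above 0. The 10 other leukocyte markers summed to 2005 to 2715 CPM and 319 to 1437 CPM, most of it Lyz1, although 8 of the 10 had a log2 fold change above 0, with a median of 0.64. Among the 4 libraries without Y-linked reads 9 of these 10 lay above 0 and 1 of them passed the adjusted threshold. Of all genes tested there, 52.7% lay above 0 and 0.693% passed in either direction. The 10 airway markers summed to 535 to 750.1 CPM and 707 to 1094 CPM, with Krt5 at 0 in all 6 libraries. The 8 AT1 markers summed to 1849 to 2793 CPM and 2124 to 2484 CPM, and the 12 immediate early genes to 16255 to 20826 CPM and 15789 to 19552 CPM. Although the AT1 sums overlapped, 6 of the 8 AT1 markers had a log2 fold change above 0, with a median of 0.33. Among the 4 libraries without Y-linked reads, 7 of the 8 were above 0, with a median of 0.44. None of the 8 passed the adjusted threshold in either fit. The part of these shifts in the levels of the ER and UPR genes was not tested.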

How the data were processed

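The authors deposited a table of raw read counts for 24421 genes in 6 libraries, without normalization. Per the labels and the study's methods, reads were trimmed, aligned to mm10 with HISAT2, cleared of duplicates and counted on genes with featureCounts (version 1.5.3 per the file headers), without strand. Even numbers made up 58.9% of the counts between 1 and 20, and the header names no setting for paired counting. The methods speak of fragments. The values are nevertheless taken here as reads, since mates may have been counted singly, and the precision of low counts may be overstated. Exons of 6 of the 38 genes overlap another gene, over at most 7.81% of their length (Ddit3).

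Counts were analysed with edgeR 4.0.16 in R 4.3.3 (TMM scaling, minimum count of 10 in the default expression filter, quasi-likelihood test, Benjamini-Hochberg adjustment over 16723 genes, threshold 0.05), with DESeq2 1.42.0 and limma-voom (limma 3.58.1) as alternatives. edgeR was kept as the main test where the methods name DESeq2. The scripts were tested on simulated data. The standard error is the log2 fold change divided by the square root of F. CPM is TMM-scaled, and RPKM is CPM per kilobase of the deposited exon length. Groups and replicate numbers came from the labels, which do not say whether the samples are separate animals, so that p-values measure the spread between samples. No pair of replicates agreed within counting noise. The 38 genes and all lists were chosen with earlier results of these data known. Per-library values were given for genes with an unadjusted p under 0.05, for genes whose groups do not overlap, for sensors and transcription factors, and for genes high in AT2 CAB replicate 3, which were picked after their values were seen. Of the other lists, up to 3 genes with the smallest p were named, of which 1 is not reported here. Igj, a plasma cell marker, was not found under that symbol. Promoters are from RefSeq. The interaction fit was added after the data were examined.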

Additional observations from a re-analysis of the deposited data

Results flagged for a closer look

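In 5 of the 38 genes, both AT2 CAB libraries without Y-linked reads lay below both AT2 CTRL libraries without such reads, while the pair with Y-linked reads (AT2 CAB replicate 3 over AT2 CTRL replicate 1) went the other way. The log2 ratio in that pair was 0.17 for Creld2, 0.36 for Syvn1, 0.18 for Edem1, 0.27 for Atf6 and 0.34 for Ppp1r15a. Such opposite directions were seen in 13.3% of all tested genes, and in 5 of 38 (13.2%) here. The pair holds 1 library per group, so within it nothing could be tested. The difference itself, as an interaction term in edgeR over the 6 libraries, gave an adjusted p of 0.359 for Creld2, 0.186 for Syvn1, 0.403 for Edem1, 0.186 for Atf6 and 0.127 for Ppp1r15a. None of the 38 genes passed (smallest adjusted p = 0.126, for Ern1), 8 of 38 had an unadjusted p under 0.05 for the interaction (13.7% of all genes), and 11 genes of the whole table passed.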

How the results depend on the processing

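Of the 38 genes, only Hsp90b1 and Edem2 passed the threshold under any alternative, and both had the same sign in the main fit. Among all 38, 8 changed sign under scaling by library size only. Genes passing the adjusted threshold, 42 over all 6 libraries, numbered 283 with DESeq2, 67 without a filter, 423 with a covariate for Y-linked reads, 113 in the 4 libraries without such reads and 6 to 63 when 1 library was left out; the 38 contributed 1 with DESeq2 (Hsp90b1) and 1 with the Y-linked covariate (Edem2), and 0 under the other alternatives. Of the 38, 14 had an unadjusted p under 0.05, which became 8 with upper-quartile scaling, 5 with library size only and 4 to 15 with 1 library left out. Over all genes, 5.05% were lower and 4.62% higher by that measure. The shares were 3.10% and 5.99% with upper-quartile scaling, and 1.91% and 8.14% with library size only. With 1 library left out, 2.17% to 6.76% of all genes were lower and 2.89% to 4.99% higher. The replicate block gave 7, where 3.35% of all genes were lower and 3.97% higher, with 0 of the 38 passing the adjusted threshold. Replicate numbers did not pair the libraries (correlations of deviations -0.20, 0.18 and -0.51). AT2 CTRL replicates 1 and 3 correlated best with an AT2 CAB library of another number, AT2 CTRL replicate 2 with that of its own. Groups did not overlap in 17 genes, in 29 among the 4 libraries and in 17 to 25 with 1 library left out. This was not counted anew where the scaling stayed as it was. Over all genes the share was 17.1%, counting both directions, and among the 4 libraries 22.5% lower and 22.3% higher. With 1 library left out, 10.9% to 21.4% of all genes were lower without overlap and 9.58% to 14.9% higher. The median log2 fold change of all 38 was -0.15 under upper-quartile scaling and -0.096 under scaling by library size only, which moved the median of all genes to 0.064 and 0.12, and against that median it stayed between -0.27 and -0.16. With library size only, the medians were -0.24 for chaperones, -0.13 for isomerases, 0.11 for ERAD, -0.034 for sensors and factors and -0.089 for the translocon. With upper-quartile scaling they were -0.18 for isomerases and -0.15 for the translocon, with a minimum count of 50, which kept 36 genes, -0.19 and -0.15, and in the 4 libraries -0.19 for isomerases. With 1 library left out, they ranged from -0.28 to -0.19 for isomerases, from -0.096 to 0.076 for ERAD, from -0.41 to -0.039 for PERK-ATF4 targets and from -0.29 to -0.17 for the translocon. Creld2, Edem1, Derl3, Vcp and Ppp1r15a changed sign between scalings and with some single libraries left out. Dnajb11 and Atf6 changed sign with library size only. Sel1l did so under that scaling and also without AT2 CAB replicate 3. Herpud1, Syvn1 and Ddit3 changed sign in the 4 libraries and without AT2 CAB replicate 3. For Ern1 and Sec61b this was seen in the 4 libraries and without AT2 CTRL replicate 1. The causes were not tested. Depth limits Ern2, Chac1 and Derl3, all under 7 CPM.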

Other observations

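Outside the ER, the cytosolic heat shock genes Hspa1a and Hspa1b were counted at 3788, 4086 and 2853 CPM and at 4276, 4455 and 3074 CPM in AT2 CTRL, and at 3358, 2244 and 2145 CPM and 3796, 2692 and 2011 CPM in AT2 CAB. Their log2 fold changes were -0.47 (adjusted p = 0.557) and -0.47 (adjusted p = 0.600), with overlapping groups. In AT2 CAB replicate 3 these 2 genes had their lowest values, while Fosb had 2777 CPM there and the amino acid transporter gene Slc7a5 had 121 CPM, against 30.7 and 43.7 CPM in AT2 CAB replicates 1 and 2. These genes were chosen after their values were seen.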
